A study of Mus musculus with 20 samples.

Results

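The 43 genes described here encode glycolytic enzymes and other proteins whose transcripts are known to be induced when oxygen is low. They were taken from a written list of hypoxia-inducible and glycolytic genes, and each was read from 1 probe set, that of highest mean level among those paired with a single gene symbol. Such a probe set existed for 40 of the 43 genes, out of 19938 genes measured in all: 11 glycolytic enzymes, 27 other hypoxia targets and the 2 factor subunits Hif1a and Epas1. Gapdh was left out because its 25 probe sets are each paired with other symbols as well, and Gpi1 and Eno1 were left out because no probe set with their symbol alone was listed.

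Expression was measured on 20 one-colour Affymetrix arrays of LLC-1 tumors, implants of a mouse Lewis lung carcinoma line in C57Bl/6 hosts. Tumors had received adenoviral vectors, 5 injections of 25 µl given 48 h apart, each with 8 log10 infectious units. The 4 groups of 5 arrays received IFNbeta together with p19Arf, p19Arf alone, IFNbeta alone, or the control vector AdeGFP, which carries enhanced green fluorescent protein (eGFP). All groups, the eGFP tumors included, had therefore been injected with adenovirus, and no uninjected tumor was analysed here. IFNbeta is an antiviral cytokine. The tumor suppressor p19Arf, a product of Cdkn2a, binds Mdm2 and so stabilises p53. Each array is a tumor by its title, and the labels do not say whether tumors were pooled, so the p-values below measure the spread between these arrays.

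Hypoxia-inducible factors are dimers of an oxygen-sensitive alpha subunit, such as the products of Hif1a and Epas1, and a stable beta subunit. When oxygen is present, prolyl hydroxylases of the Egln family mark the alpha subunit for destruction by the von Hippel-Lindau ubiquitin ligase. When oxygen is scarce the dimer binds short DNA elements and raises transcripts for glucose uptake, glycolysis, pH control, mitochondrial removal and vessel growth, a programme known to be active in the poorly perfused parts of solid tumors. The alpha subunit of Hif1a is controlled mainly at the protein level, so its transcript does not report the factor's activity.

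The values are log2 expression values that the authors had normalized, and a difference of 1 is a change of 1 doubling. Among all single-symbol genes Vim was at 13.6, in the 99.9th percentile of mean level. The carcinoma and lung epithelial markers were low or intermediate, with Epcam at 6.41, Sftpc at 6.19, Krt18 at 7.17 and Krt8 at 7.75, and the table gives no detection call that would separate these from background. Of the genes carried by the vectors, Cdkn2a averaged 7.55 ± 0.21 in p19Arf+IFNbeta tumors, 7.58 ± 0.19 in p19Arf tumors, 7.38 ± 0.09 in IFNbeta tumors and 7.43 ± 0.07 in eGFP tumors (SD, n = 5 each). Ifnb1 averaged between 6.00 and 6.21 in the 4 groups. Whether these probe sets lie in the parts the vectors carry was not tested, so they check no label. Each array has a spread, here the standard deviation of all its log2 values, and it ran from 1.99 to 2.15. Its group median was 2.06 in p19Arf+IFNbeta tumors and 2.06 in p19Arf tumors, against 2.13 in IFNbeta tumors and 2.11 in eGFP tumors. This measure matters here because it moved with many of the members, as given beside the results.

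Promoters of members could be read for 33 of the 40 genes from RefSeq (GRCm38.p6), each from 250 bases before to 50 bases after a transcript start. They were searched on both strands for the core of the hypoxia response element, spelled ACGTG or GCGTG. The promoters of 5 members are shown because they belong to members the results turn on: the sensor Egln3, the kinase Pdk1 and the peptide hormone Adm, each with a lower mean in p19Arf+IFNbeta than in eGFP tumors, the enzyme Ldha, and Pfkfb3, which had a higher mean. Capitals mark every match of a core on either strand, so CACGC is GCGTG and CACGT is ACGTG read on the other strand, and CACGTG holds an ACGTG match on each strand. The windows are chr12:54203825-54204124 (minus strand) for Egln3, chr2:71872974-71873273 (plus) for Pdk1, chr7:110627407-110627706 (plus) for Adm, chr7:46845554-46845853 (plus) for Ldha and chr2:11502041-11502340 (minus) for Pfkfb3.
Egln3: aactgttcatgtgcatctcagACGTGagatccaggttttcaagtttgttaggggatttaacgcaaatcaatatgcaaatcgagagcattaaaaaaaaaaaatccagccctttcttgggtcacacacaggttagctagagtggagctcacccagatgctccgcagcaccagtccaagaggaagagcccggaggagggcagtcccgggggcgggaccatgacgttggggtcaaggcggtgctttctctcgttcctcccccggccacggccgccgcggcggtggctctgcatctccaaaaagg
Pdk1: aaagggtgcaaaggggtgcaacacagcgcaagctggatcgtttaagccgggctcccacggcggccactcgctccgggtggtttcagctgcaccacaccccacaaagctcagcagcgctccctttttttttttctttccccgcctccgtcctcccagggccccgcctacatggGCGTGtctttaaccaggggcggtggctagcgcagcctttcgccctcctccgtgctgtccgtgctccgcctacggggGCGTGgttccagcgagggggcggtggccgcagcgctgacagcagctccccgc
Adm: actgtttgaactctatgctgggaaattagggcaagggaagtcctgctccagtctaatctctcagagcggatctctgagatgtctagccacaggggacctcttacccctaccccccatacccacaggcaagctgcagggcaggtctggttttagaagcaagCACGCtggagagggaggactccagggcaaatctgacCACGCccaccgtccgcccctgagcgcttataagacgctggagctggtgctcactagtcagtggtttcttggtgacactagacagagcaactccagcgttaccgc
Ldha: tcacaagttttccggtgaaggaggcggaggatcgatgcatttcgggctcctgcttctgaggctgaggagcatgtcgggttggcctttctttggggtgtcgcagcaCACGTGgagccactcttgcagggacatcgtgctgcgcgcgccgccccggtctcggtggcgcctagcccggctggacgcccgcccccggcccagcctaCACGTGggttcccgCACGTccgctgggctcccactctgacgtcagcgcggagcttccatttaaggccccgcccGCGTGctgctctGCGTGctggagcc
Pfkfb3: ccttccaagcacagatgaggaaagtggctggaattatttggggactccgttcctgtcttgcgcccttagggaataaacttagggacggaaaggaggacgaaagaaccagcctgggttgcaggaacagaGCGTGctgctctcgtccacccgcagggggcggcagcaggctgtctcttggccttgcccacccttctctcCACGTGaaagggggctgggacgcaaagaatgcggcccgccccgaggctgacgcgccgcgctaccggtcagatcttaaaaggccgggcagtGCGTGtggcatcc

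Pdk1, Ldha and Pfkfb3 each have 2 promoters in the table, of which the one with more matches is shown. Egln3 had 1 match, Pdk1 and Adm 2 each, Pfkfb3 4 and Ldha 7. At least 1 match was found in 31 of the 33 members with a promoter (93.9%), against 46.7% of all 27025 genes with one. The members without a match in the window were Tpi1 and Car12. A match is a string of letters and not a shown binding site. Members' promoters are also richer in CG dinucleotides, which both cores contain, with a median of 23 per promoter against 7 over all 32851 promoters. The longer palindrome CACGTG was present in 8.7% of the members' 46 promoters and in 7.15% of all promoters.

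The first question was how these genes differed between tumors that received both vectors and tumors that received eGFP. No member, and no gene of the 19938, passed an adjusted p of 0.05 (limma with Benjamini-Hochberg adjustment over all genes), and the smallest adjusted p, 0.234, was shared by members and other genes. In p19Arf+IFNbeta tumors 27 of the 40 members had a lower mean and 13 a higher mean, with a median difference of -0.22, against a median of 0.02 and 45% of genes with a lower mean over all genes. At an unadjusted p under 0.05, 18 members were lower and 3 higher, where 11.4% of all genes were lower and 6.18% higher. Most members are abundant transcripts: 24 of the 40 have a mean level of 10 or more, and of all 2702 genes at that level 32.6% were lower at the same threshold, against 11 of those 24 members (45.8%). A lower mean was found for 19 of the 24 members and for 78.4% of all genes at that level, whose median difference was -0.18. Below that level 7 of 16 members were lower (43.8%), against 8.11% of genes.

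Array spread moved with these values. Over the 20 arrays the median correlation of a member with the spread was 0.59, against 0.74 for genes of mean level 10 or more and -0.23 for all genes. The arrays are shared by all these points, and no p is given. With the spread as a covariate, 6 members were lower and 2 higher at an unadjusted p under 0.05, with a median difference of -0.10, where 2.65% of all genes were lower and 3.43% higher. Without the 5 arrays of lowest spread, a setting chosen after the data were seen, 10 were lower, as were 4.48% of all genes, and 3 higher, and the median was -0.04. Those arrays were p19Arf+IFNbeta replicates 4 and 5, p19Arf replicates 2 and 4, and IFNbeta replicate 3. None was an eGFP array, so this setting took arrays from 1 side of the comparison only and left fewer arrays to test. After quantile normalization 12 were lower and 5 higher, where 9.27% of all genes were lower and 8.22% higher. The part of array spread in the differences was not tested.

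**Figure D1:**
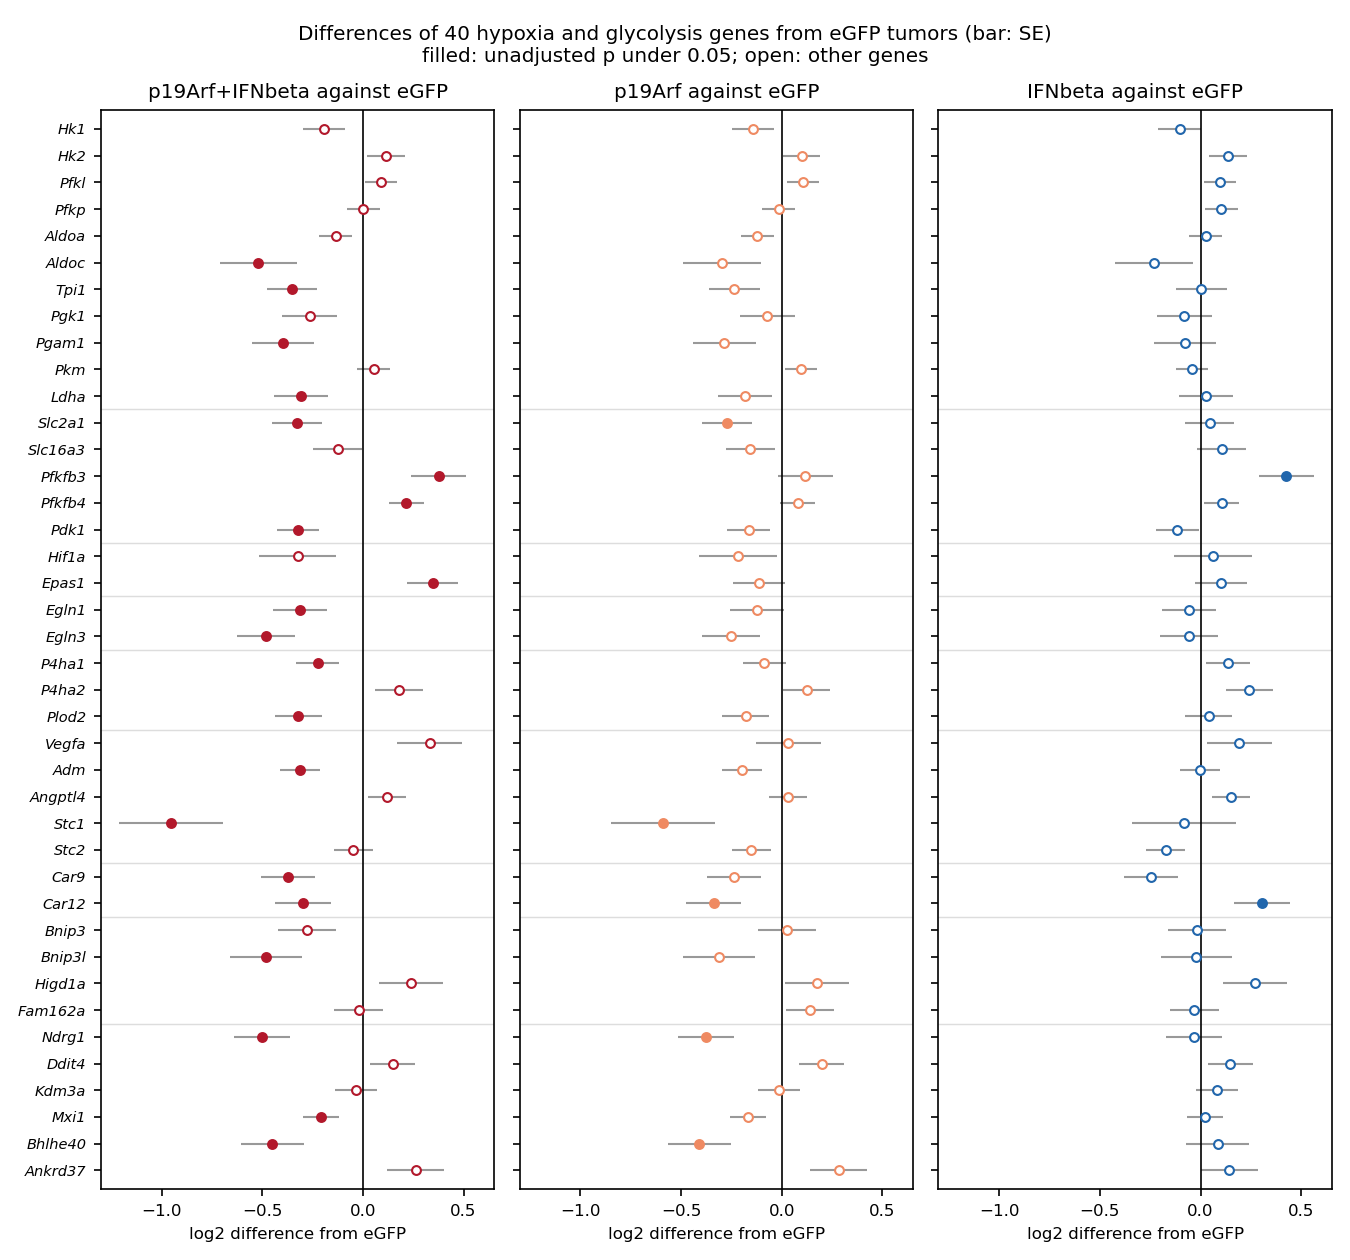
Difference from eGFP tumors on the log2 scale (horizontal axis) for each of the 40 members (rows, by class), in 3 panels for p19Arf+IFNbeta, p19Arf and IFNbeta. Points are limma estimates, bars are standard errors, and filled points have an unadjusted p under 0.05. In the p19Arf+IFNbeta panel the points run from -0.95 for Stc1 to 0.38 for Pfkfb3; in the IFNbeta panel they lie around 0.

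Among the glycolytic enzymes, 7 of 11 had a lower mean in p19Arf+IFNbeta than in eGFP tumors and 4 were lower at an unadjusted p under 0.05, with a median difference of -0.19. Of all genes 45% had a lower mean and 11.4% were lower at that threshold. All the enzymes but Aldoc have a mean level of 10 or more. Of genes at that level 78.4% had a lower mean and 32.6% were lower at the threshold, with a median of -0.18, close to the enzymes' values. Lactate dehydrogenase A (Ldha), which turns pyruvate into lactate, was at 12.87, 13.06, 12.68, 12.43 and 12.50 in the 5 p19Arf+IFNbeta tumors, against 12.82, 13.11, 12.98, 13.13 and 13.03 in the eGFP tumors. The groups overlapped: 3 of the 5 p19Arf+IFNbeta arrays lay below every eGFP array, and the difference was -0.31 (SE 0.13, unadjusted p = 0.0323, adjusted p = 0.256, limma). Phosphoglycerate kinase (Pgk1), an ATP-forming step of glycolysis, was at 12.66, 12.81, 12.78, 12.06 and 12.21 in p19Arf+IFNbeta tumors, against 12.72, 12.68, 12.76, 12.85 and 12.84 in eGFP tumors. Replicates 4 and 5 of the p19Arf+IFNbeta group were the low ones, and the difference of -0.27 (SE 0.14, unadjusted p = 0.0651, limma) became -0.15 without replicate 4. The other enzymes with an unadjusted p under 0.05 were the aldolase Aldoc at -0.52, the phosphoglycerate mutase Pgam1 at -0.40 and the triose isomerase Tpi1 at -0.35. The hexokinases Hk1 and Hk2, which trap glucose as its phosphate, were at -0.19 and 0.11, the phosphofructokinase Pfkl at 0.09 and the pyruvate kinase Pkm at 0.05. Pfkp at 0.002 and Aldoa at -0.14 changed sign when the arrays were rescaled.

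Of the glucose and lactate transporters and flux regulators, Slc2a1, the glucose transporter GLUT1, was at 12.25, 12.60, 12.21, 12.16 and 12.06 in p19Arf+IFNbeta tumors, against 12.44, 12.64, 12.51, 12.71 and 12.62 in eGFP tumors. All but 1 of the p19Arf+IFNbeta arrays lay below every eGFP array (difference -0.33, SE 0.12, unadjusted p = 0.0145, adjusted p = 0.234, limma). Pdk1, a kinase that inactivates pyruvate dehydrogenase, was at 10.40, 10.50, 10.37, 10.02 and 10.24 in p19Arf+IFNbeta tumors, against 10.49, 10.76, 10.46, 10.73 and 10.70 in eGFP tumors. Its difference was -0.32 (SE 0.11, unadjusted p = 0.00622, adjusted p = 0.234, limma), with 4 of the 5 p19Arf+IFNbeta arrays below every eGFP array. The enzymes that make fructose 2,6-bisphosphate, the activator of phosphofructokinase, lay the other way. Pfkfb3 was at 9.16, 9.15, 9.04, 9.38 and 9.22 in p19Arf+IFNbeta tumors, against 9.14, 8.84, 8.74, 8.69 and 8.67 in eGFP tumors, so that only eGFP replicate 1 reached the p19Arf+IFNbeta values (difference 0.38, SE 0.14, unadjusted p = 0.0124, limma). Pfkfb4 was at 0.22 (unadjusted p = 0.0201, limma), and the lactate exporter Slc16a3 at -0.13.

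The oxygen sensor Egln3, a prolyl hydroxylase and itself a known target of the factors it restrains, was at 11.88, 12.26, 12.22, 11.45 and 11.57 in p19Arf+IFNbeta tumors, against 12.26, 12.37, 12.27, 12.49 and 12.39 in eGFP tumors. The groups did not overlap, although replicate 2 of the p19Arf+IFNbeta group and replicate 1 of the eGFP group were nearly level (difference -0.48, SE 0.14, unadjusted p = 0.00312, adjusted p = 0.234, limma). Egln1, the other sensor measured, was at -0.31. Non-overlapping groups with all p19Arf+IFNbeta arrays lower were seen for 3 members, Egln3, Adm and the Max-binding repressor Mxi1, and for 0.547% of all genes. Of the factor subunits, Hif1a was at 11.79, 11.99, 11.50, 11.04 and 11.05 in p19Arf+IFNbeta tumors, against 11.36, 11.85, 11.90, 12.00 and 11.90 in eGFP tumors. The groups overlapped, since eGFP replicate 1 was low, and the difference of -0.32 (SE 0.19, unadjusted p = 0.106, limma) was -0.002 with array spread as a covariate. Epas1, which encodes the alpha subunit best known from endothelial cells, was at 9.71, 9.09, 9.28, 9.14 and 8.87 in p19Arf+IFNbeta tumors, against 9.08, 9.01, 8.72, 8.75 and 8.81 in eGFP tumors. It was one of the 3 members with a higher mean at an unadjusted p under 0.05 (difference 0.35, SE 0.13, unadjusted p = 0.0137, limma), and its difference was 0.22 without p19Arf+IFNbeta replicate 1. The 17 endothelial markers, measured for comparison, had a median difference of 0.04.

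Among secreted products of the programme, 3 of 5 had a lower mean and 2 a higher one, where 45% of all genes had a lower mean. Stc1, stanniocalcin-1, a secreted glycoprotein hormone, had the lowest difference of all members. It was at 8.93, 9.05, 8.31, 8.17 and 8.42 in p19Arf+IFNbeta tumors, against 8.73, 9.88, 9.70, 9.72 and 9.63 in eGFP tumors. Apart from eGFP replicate 1, every eGFP array lay above every p19Arf+IFNbeta array, and the difference was -0.95 (SE 0.26, unadjusted p = 0.00123, adjusted p = 0.234, limma), a level 0.52 times that of eGFP. Stc1 was the member that passed when that eGFP array was left out, at a difference of -1.16, and when arrays were weighted by their quality, at -0.99 (adjusted p = 0.0366, limma). Leaving that array out took away the lowest eGFP value of Stc1. The shares of all genes that passed in these fits are not given, so the passes cannot be read as particular to Stc1. Adrenomedullin (Adm), a vasodilating peptide, was at 7.92, 7.83, 7.79, 7.66 and 7.72 in p19Arf+IFNbeta tumors, against 7.95, 8.13, 8.07, 8.23 and 8.11 in eGFP tumors. The groups were separate but close (difference -0.31, SE 0.10, unadjusted p = 0.00475, adjusted p = 0.234, limma). Vegfa, the vascular endothelial growth factor, was at 10.45, 10.56, 10.65, 11.21 and 10.65 in p19Arf+IFNbeta tumors, against 10.74, 10.28, 10.25, 10.18 and 10.41 in eGFP tumors. Replicate 4 of the p19Arf+IFNbeta group stood well above the rest; the difference was 0.33 with it and 0.21 without it, and neither passed (unadjusted p = 0.0518 with it, limma). Angptl4 was at 0.12 and Stc2, whose sign changed with the muscle markers as a covariate, at -0.05.

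The remaining targets mostly had lower means. Ndrg1, a stress-induced gene used as a tissue marker of hypoxia, was at 11.02, 11.14, 10.72, 10.85 and 10.88 in p19Arf+IFNbeta tumors, against 11.09, 11.76, 11.20, 11.55 and 11.50 in eGFP tumors. All but 1 of the p19Arf+IFNbeta arrays lay below every eGFP array (difference -0.50, SE 0.14, unadjusted p = 0.00152, adjusted p = 0.234, limma). Bhlhe40, a transcriptional repressor of the clock and hypoxia responses, was at 9.41, 9.39, 8.85, 9.11 and 9.11 in p19Arf+IFNbeta tumors, against 9.44, 10.04, 9.29, 9.90 and 9.45 in eGFP tumors. The groups overlapped through replicates 1 and 2 of the p19Arf+IFNbeta group and replicate 3 of the eGFP group (difference -0.45, SE 0.16, unadjusted p = 0.00852, adjusted p = 0.234, limma). Both carbonic anhydrases that acidify the space around hypoxic cells had lower means, Car9 at -0.37 and Car12 at -0.30, as did the collagen hydroxylases P4ha1 at -0.23 and Plod2 at -0.32, while P4ha2 was at 0.18. The mitophagy receptors were at -0.48 for Bnip3l and -0.28 for Bnip3, and Higd1a, a mitochondrial protein, at 0.24. Ankrd37, at 0.26, and the mTOR inhibitor Ddit4, at 0.15, had higher means. The histone demethylase gene Kdm3a, at -0.03, and Fam162a, at -0.02, changed sign under quantile normalization.

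**Figure D2:**
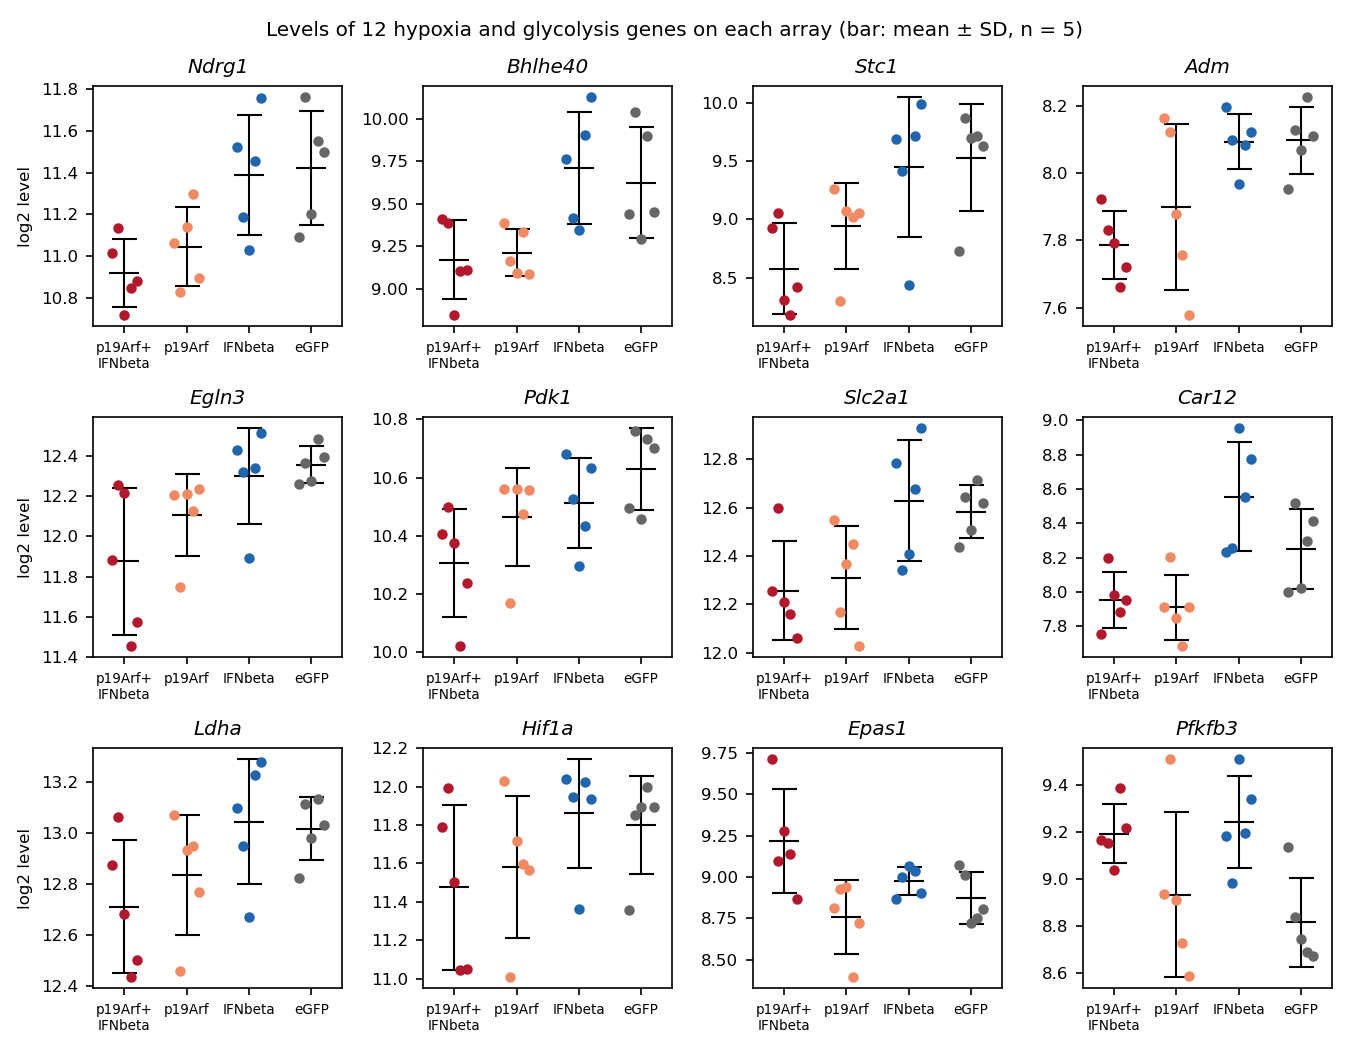
Log2 level (vertical axis, each panel on its own scale) of 12 members on every array, by group from left to right p19Arf+IFNbeta, p19Arf, IFNbeta and eGFP; small points are arrays and the larger marks are group means with their SD (n = 5). For Egln3 and Adm no p19Arf+IFNbeta array reaches the lowest eGFP array, and for Hif1a and Stc1 single arrays stand apart from their group.

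Tumors that received p19Arf alone were then compared with eGFP tumors. No member passed (smallest adjusted p = 0.661, limma), 27 members again had a lower mean and 13 a higher one, and the median difference was -0.13, against 0.02 and 45.6% of genes with a lower mean over all genes. At an unadjusted p under 0.05 there were 5 lower members, and 0 higher ones, where 4.4% of all genes were lower and 2.84% higher. Of genes of mean level 10 or more 11.1% were lower at that threshold, against 2 of 24 such members (8.33%), and 78.4% had a lower mean, against 18 of the 24. The 5 members were Ndrg1, Bhlhe40, Car12, Stc1 and Slc2a1. That count was 0 without eGFP replicate 2, 10 without p19Arf replicate 1, and after quantile normalization 6 lower and 2 higher, where 3.97% of all genes were lower and 2.99% higher. For the fits that left out 1 array the share of all genes is not given. The counts of 0 and 10 therefore cannot be read as particular to the members. This comparison shares its eGFP arrays with the preceding one, so that likeness between them is in part built in.

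Ndrg1 was at 11.06, 10.83, 11.14, 11.30 and 10.90 in p19Arf tumors, 3 of them below every eGFP array (difference -0.37, SE 0.14, unadjusted p = 0.0129, limma). Bhlhe40 was at 9.39, 9.17, 9.09, 9.34 and 9.09 in p19Arf tumors and differed by -0.41 (SE 0.16, unadjusted p = 0.0156, limma). For Bhlhe40 the p19Arf arrays were closer to each other than the eGFP arrays were. Car12 encodes a membrane carbonic anhydrase. It was at 7.91, 8.20, 7.85, 7.68 and 7.91 in p19Arf tumors, against 8.00, 8.52, 8.02, 8.30 and 8.42 in eGFP tumors (difference -0.34, SE 0.14, unadjusted p = 0.0229, limma). Only p19Arf replicate 2 lay inside the eGFP range. Egln3, at 12.21, 11.75, 12.21, 12.13 and 12.23 in p19Arf tumors, was below every eGFP array in all 5, as were 0.441% of all genes, although its unadjusted p was 0.0957 (limma). Stc1, at 9.27, 8.30, 9.08, 9.02 and 9.05 in p19Arf tumors, and Slc2a1, at 12.55, 12.17, 12.37, 12.45 and 12.03, differed from eGFP tumors by -0.59 and -0.27. Hif1a was at 12.03, 11.01, 11.72, 11.60 and 11.57 in p19Arf tumors, a difference of -0.22 that became 0.08 with array spread as a covariate. Replicate 2 of this group had the group's lowest Hif1a, Stc1, Pdk1 and Egln3 values and its highest Pfkfb3, P4ha2 and Vegfa values.

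Of the 3 vector groups, IFNbeta tumors had the members' median difference from eGFP tumors closest to 0. None of the members passed (smallest adjusted p = 0.9998 for members and 0.836 over all genes, limma), 24 had a higher and 16 a lower mean, and the median difference was 0.03, against -0.02 and 55.8% with a lower mean over all genes. At an unadjusted p under 0.05 the higher members were Pfkfb3 and Car12, where 1.34% of all genes were higher, and no member was lower, where 1.45% of genes were. Pfkfb3 was at 9.18, 8.98, 9.51, 9.19 and 9.34 in IFNbeta tumors, 4 of them above every eGFP array (difference 0.43, SE 0.14, unadjusted p = 0.00536, limma). Car12 was at 8.24, 8.26, 8.96, 8.56 and 8.78 in IFNbeta tumors, 3 of them above every eGFP array (difference 0.31, SE 0.14, unadjusted p = 0.0379, limma). P4ha2, a collagen prolyl hydroxylase subunit, was at 8.89, 8.83, 9.15, 8.92 and 9.01 in IFNbeta tumors, against 9.05, 8.54, 8.54, 8.72 and 8.75 in eGFP tumors. These groups overlapped through eGFP replicate 1 (difference 0.24, SE 0.12, unadjusted p = 0.0518, limma). The glycolytic enzymes had a median difference of 0.004, with Ldha at 0.03, Pgk1 at -0.08 and Slc2a1, the glucose transporter, at 0.05. Pgk1 became 0.02 with the muscle markers as a covariate.

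The combination was set against each single vector. Against p19Arf alone the median difference was -0.05, 28 members had a lower mean in p19Arf+IFNbeta tumors, as had 53.1% of all genes and 68.1% of genes of mean level 10 or more, and none passed (smallest adjusted p = 0.998, limma). Epas1 was the member with the smallest unadjusted p there: 4 of the 5 p19Arf+IFNbeta arrays given above lay over all p19Arf arrays, which were at 8.81, 8.93, 8.94, 8.39 and 8.72 (difference 0.46, SE 0.13, unadjusted p = 0.00171, adjusted p = 0.998, limma). Bnip3 was at -0.30 (unadjusted p = 0.0479, limma), where 1.24% of all genes were lower and 1.83% higher at an unadjusted p under 0.05.

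Against IFNbeta alone, 32 of 40 members had a lower mean in p19Arf+IFNbeta tumors, with a median difference of -0.20, against 0.05 and 42.9% with a lower mean over all genes. At a mean level of 10 or more 21 of 24 members had a lower mean, and 80.6% of genes. No member passed (smallest adjusted p = 0.15 for members and 0.0575 over all genes, limma), and 13 were lower and 0 higher at an unadjusted p under 0.05, where 14% of all genes, and 34% of genes of mean level 10 or more, were lower and 11.8% of all genes higher. After quantile normalization 12 were lower and 2 higher, where 9.68% of all genes were lower and 12.6% higher. Car12 and Adm did not overlap, all p19Arf+IFNbeta arrays being lower, as were 0.782% of genes. Car12 was at 7.76, 8.20, 7.98, 7.88 and 7.95 in p19Arf+IFNbeta tumors, against the IFNbeta values given above (difference -0.60, SE 0.14, unadjusted p = 0.000258, adjusted p = 0.15, limma). Adm was at 8.20, 8.10, 7.97, 8.08 and 8.12 in IFNbeta tumors, close to its eGFP values. One array decided how many members passed here: without IFNbeta replicate 3, 13 members passed. The share of all genes that then passed is not given, so this count cannot be read as particular to the members. IFNbeta replicate 3 had the group's lowest spread, 2.04, and the lowest Hif1a, Stc1, Egln3, Pdk1, Ldha and Pgk1 levels of its group. Its skin epidermis markers averaged 8.80, against 6.55 to 6.76 on the other IFNbeta arrays, and their part in the result was not tested.

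Tumors with p19Arf, with or without IFNbeta, were also compared with tumors without it, 10 arrays against 10. The smallest adjusted p was 0.061 (limma), shared by members and other genes, so none passed, and 27 members had a lower mean, as had 42.2% of all genes. At a mean level of 10 or more 19 of 24 members and 80.8% of genes did. At an unadjusted p under 0.05, 19 members were lower and 0 higher, where 18% of all genes and 45.4% of genes of mean level 10 or more were lower and 14.8% of all genes higher. After quantile normalization 13 members were lower and 5 higher, where 13.4% of all genes were lower and 14.1% higher. Car12 had the smallest unadjusted p of the members, with 8 of the 10 arrays with p19Arf below every array without it (difference -0.47, SE 0.10, unadjusted p = 8.47e-05, adjusted p = 0.061, limma). Ndrg1 differed by -0.42 (SE 0.10, unadjusted p = 0.000284) and Bhlhe40 by -0.47 (SE 0.11, unadjusted p = 0.000298), both with an adjusted p of 0.061 (limma). In the test for any difference among the 4 groups these were also the first 3 members, and 15 of 40 members (37.5%) had an unadjusted p under 0.05, where 16.3% of all genes did. The adjusted p of 0.061 stood close to the threshold, and single arrays moved members across it. Between 7 and 16 members passed when 1 of 5 arrays was left out, namely IFNbeta replicate 3 (16 members), p19Arf+IFNbeta replicate 2 (14), eGFP replicate 1 (13), p19Arf replicate 1 (13) or p19Arf+IFNbeta replicate 1 (7), and 0 passed when any other single array was left out. The share of all genes that passed in these fits is not given, so these counts cannot be read as particular to the members. With the spread as a covariate 7 members were lower at an unadjusted p under 0.05 and the median was -0.06, against -0.16 without the covariate; 2.64% of all genes were then lower.

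The interaction asks whether the effect of p19Arf differed between tumors with and without IFNbeta. No member had an unadjusted p under 0.05, where 0.813% of genes were higher and 0.492% lower. The interaction was negative for 32 of 40 members and for 47.8% of all genes, with a median of -0.11 over the members. At a mean level of 10 or more it was negative for 21 of 24 members and for 71.3% of genes. Epas1 had a positive interaction of 0.36 (SE 0.18, 95% confidence interval -0.02 to 0.74, unadjusted p = 0.0622, limma). For Stc1 the interval, -1.04 to 0.47, left room for a departure as large as its difference from eGFP.

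Glycolytic enzymes and other targets were compared by each array's median deviation from the members' means in eGFP tumors. In p19Arf+IFNbeta tumors that median ran from -0.47 to 0.04 for enzymes and from -0.30 to 0.02 for other targets. The corresponding ranges were -0.41 to 0.05 and -0.18 to 0.04 in p19Arf tumors, -0.25 to 0.21 and -0.05 to 0.16 in IFNbeta tumors, and -0.05 to 0.06 and -0.09 to 0.09 in eGFP tumors. Every range included 0, and for the enzymes the eGFP arrays lay closest together. The median differences between p19Arf+IFNbeta and eGFP tumors, -0.19 for enzymes and -0.23 for other targets, were set apart by less than the pooled SD between replicates, which was 0.17 for enzymes and 0.10 for other targets. The mean level of targets minus that of enzymes averaged -1.91 ± 0.09 in p19Arf+IFNbeta tumors, -1.93 ± 0.09 in p19Arf tumors, -1.85 ± 0.09 in IFNbeta tumors and -1.92 ± 0.05 in eGFP tumors (SD, n = 5 each), which overlapped in all 4 groups. Both medians followed the array spread, with r = 0.78 for enzymes and 0.84 for other targets over the 20 arrays, and 0.72 and 0.80 for deviations from the group means.

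**Figure D3:**
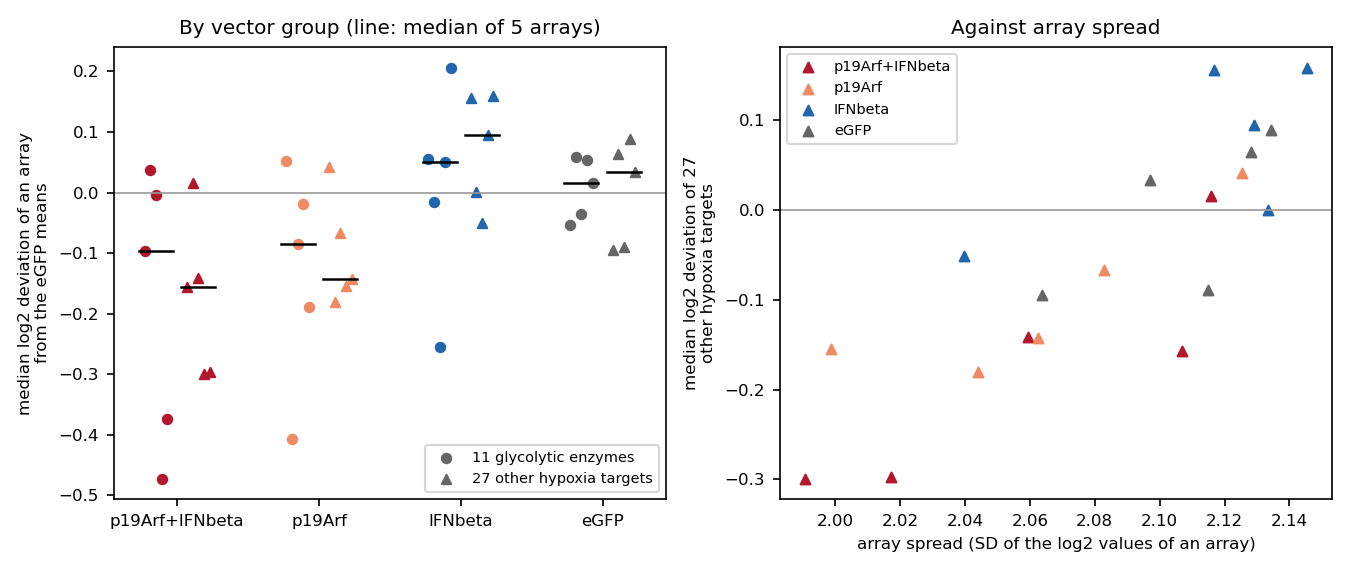
Left: median deviation of the 11 enzymes and of the 27 other targets from their means in eGFP tumors (log2, vertical axis), 1 point per array, by group, with lines at the median of the 5 arrays. Right: the targets' median deviation against the array spread (SD of the log2 values, horizontal axis), where arrays of all groups run along 1 band (r = 0.84).

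Members did not vary as 1 block. Over the 20 arrays, the median correlation between 2 members was 0.13 for the 780 pairs, 0.27 within the enzymes, 0.11 within the other targets and 0.20 between the classes. Some pairs were close: Tpi1 with Ldha at r = 0.97, Pgam1 with Bnip3l at 0.97, P4ha1 with Plod2 at 0.93, Ldha with Hif1a at 0.93, and Ndrg1 with Bhlhe40 at 0.91. A second set ran against them. Vegfa correlated at 0.86 with Pfkfb3, 0.83 with P4ha2 and 0.71 with Hk2, but at -0.65 with Hif1a, -0.65 with Egln3 and -0.73 with both Pgk1 and Pdk1. Ankrd37 correlated at 0.86 with Ddit4 and 0.75 with Hk2, and at -0.74 with Hif1a. These signs were the same for deviations from the group means (Vegfa with Hif1a, -0.70) and after quantile normalization (-0.75). Hence members known as targets of the same factors lay at opposite ends of the variation between arrays of 1 group. The pairs were picked after the values were seen, and they share arrays and array spread, with which Hif1a correlated at 0.87, Stc1 at 0.82, Vegfa at -0.47 and Ankrd37 at -0.64. Across all genes, those most like the mean of Ndrg1, Egln3 and Pdk1 were Bnc1 (r = 0.96), Fam171a1 (0.94) and Irak1bp1 (0.94).

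**Figure D4:**
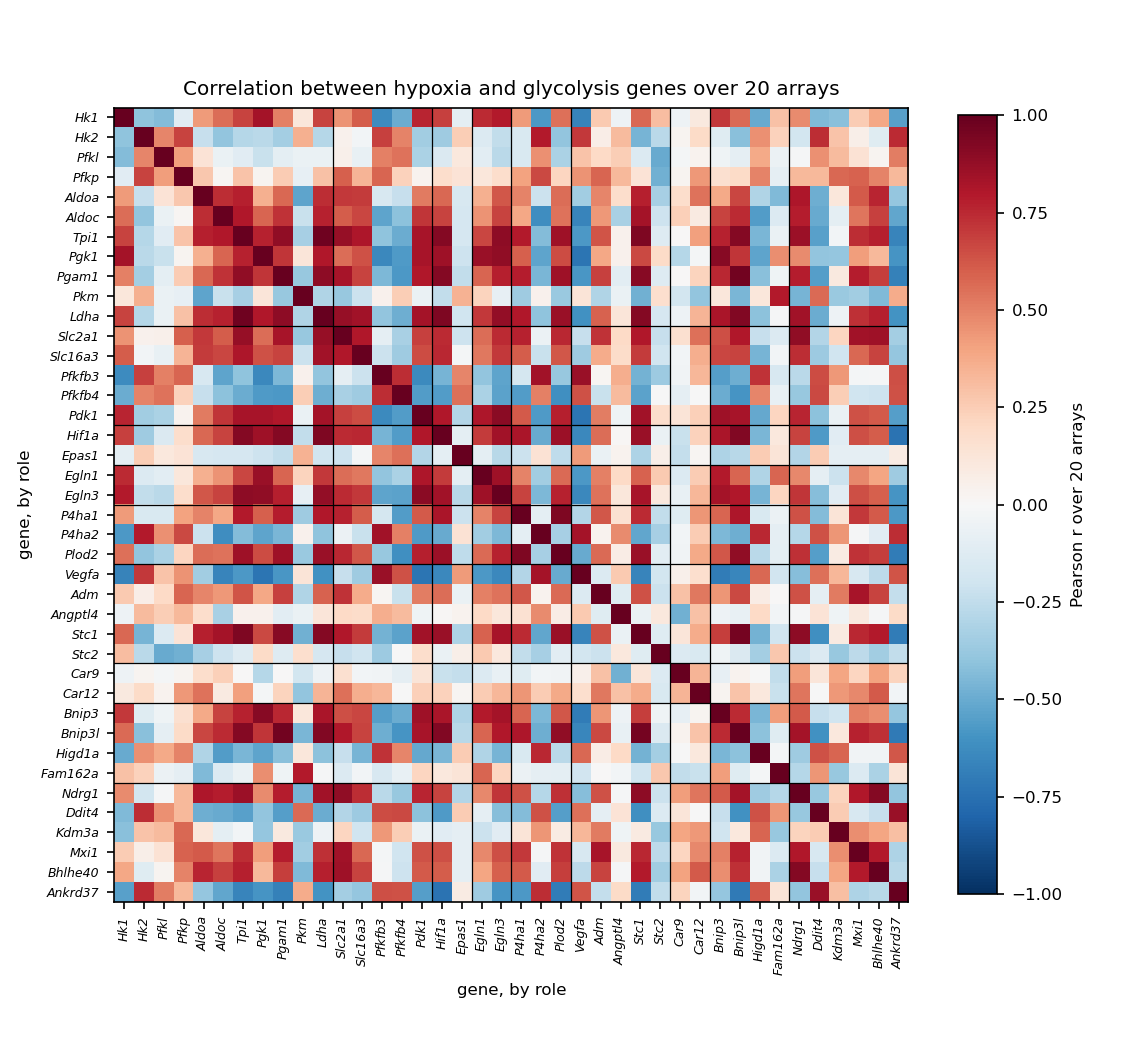
Pearson correlation over 20 arrays (colour, -1 to 1) between the log2 levels of every 2 of the 40 members, with the members ordered by role and lines between roles. Tpi1, Ldha, Hif1a, Stc1 and Bnip3l are positive with each other, as are Vegfa, Pfkfb3, P4ha2, Hk2 and Ankrd37, and the correlations between these sets are negative.

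Probe sets of 1 member did not always move together. Of the 7 members with several, Pgk1, Pgam1 and Bnip3l had probe sets that correlated at 0.98 or more, while the second probe set of Higd1a correlated at 0.68, that of Pkm at 0.41, that of Hk1 at 0.31 and that of Bnip3 at 0.27. Pgk1 and Pgam1 each had probe sets with the same mean level and the same differences, which cannot count as separate readings. For Bnip3 the second probe set gave -0.09 between p19Arf+IFNbeta and eGFP tumors, against -0.28 for the one used. The corresponding values were 0.05 against 0.24 for Higd1a, -0.07 against -0.19 for Hk1 and 0.13 against 0.05 for Pkm. Several glycolytic genes have near-identical processed copies in the mouse genome, and whether these probe sets separate them was not tested.

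Other genes of the pathways were read from a pair of written lists. Of 32 measured genes of glycolysis and glucose use outside the members, 0 passed in any comparison with eGFP. In p19Arf+IFNbeta against eGFP tumors 7 were lower and 3 higher at an unadjusted p under 0.05, and the median was -0.04. At that threshold 11.4% of all genes were lower and 6.18% higher, and 32.6% of genes of mean level 10 or more were lower. Pdk4, a relative of Pdk1 that is abundant in muscle and fasting tissue, averaged 6.95 ± 0.40 in p19Arf+IFNbeta tumors and 6.28 ± 0.18 in eGFP tumors (SD, n = 5 each). That difference was 0.68 (SE 0.21, unadjusted p = 0.00331, limma), and the difference for IFNbeta tumors was 0.77 (unadjusted p = 0.00114, limma). The glycogen branching enzyme Gbe1 was at -0.60 and the bisphosphatase Fbp2, known from muscle, at 0.33. Of 42 measured genes of the factor pathway and other hypoxia-inducible genes, 12 were lower and 2 higher at the same threshold, with a median of -0.09, against the same shares of other genes. The lower genes included Cul2, the scaffold of the von Hippel-Lindau ligase, at -0.68 (SE 0.21, unadjusted p = 0.00399, limma) and Igfbp3, which binds insulin-like growth factors, at -0.50 (SE 0.16, unadjusted p = 0.00478, limma). Gbe1 and Gys1 stand in both lists, so the lists are not separate.

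Markers of other cell types were read beside the members, and none passed an adjusted p of 0.05 in any comparison. Between p19Arf+IFNbeta and eGFP tumors no adipocyte, skin epidermis, erythroid, platelet, carcinoma or lung epithelial marker had an unadjusted p under 0.05. All 20 skeletal muscle markers had a higher mean in p19Arf+IFNbeta than in eGFP tumors, 11 of them at an unadjusted p under 0.05, with a median difference of 0.80. Of all genes 55% had a higher mean and 6.18% were higher at that threshold. The mean level of the muscle markers per array ran from 7.26 to 8.70 in p19Arf+IFNbeta tumors, 7.19 to 8.55 in p19Arf tumors, 7.18 to 9.01 in IFNbeta tumors and 7.17 to 7.78 in eGFP tumors. With that level as a covariate 12 members were lower and 2 higher at an unadjusted p under 0.05, and the median member difference was -0.16, where 8.75% of all genes were lower and 5.83% higher. Fibroblast and matrix markers ran from 9.81 to 10.50 in p19Arf+IFNbeta tumors, against 9.58 to 10.05 in eGFP tumors, and neutrophil markers from 7.92 to 8.50, against 7.88 to 8.18. These ranges overlapped. Of the 18 fibroblast and matrix markers 14 had a higher mean in p19Arf+IFNbeta tumors, with a median difference of 0.30. At an unadjusted p under 0.05, 11 were higher and 3 lower. Of the 17 neutrophil markers 13 had a higher mean, with a median difference of 0.23. At that threshold 8 were higher and 1 lower, where 6.18% of all genes were higher and 11.4% lower. Each list also held genes with a lower mean, the lowest at -1.12 in both lists. In such whole-tumor samples fewer cells of a type and less RNA per cell cannot be told apart. The 18 macrophage and monocyte markers averaged 9.78 to 10.38 per array in p19Arf+IFNbeta tumors, 9.85 to 10.31 in p19Arf tumors, 10.01 to 10.39 in IFNbeta tumors and 10.10 to 10.34 in eGFP tumors. Between p19Arf+IFNbeta and eGFP tumors 9 of them had a higher and 9 a lower mean, 1 was higher and 4 were lower at an unadjusted p under 0.05, and the median difference was -0.07. At that threshold 11.4% of all genes were lower and 6.18% higher. In tumors with p19Arf against tumors without it 15 of the 18 had a lower mean, 5 of them at that threshold. There 42.2% of all genes had a lower mean and 18% were lower at that threshold. Of genes of mean level 10 or more these shares were 80.8% and 45.4%. Over the 20 arrays the mean of the macrophage and monocyte markers correlated with Hif1a at 0.89, Ldha at 0.83, Tpi1 at 0.80 and Egln3 at 0.75, these members being picked after the values were seen. The part of the fibroblast, neutrophil, macrophage and monocyte markers in the members' differences was not tested.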

How the data were processed

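Total RNA of 20 LLC-1 tumors, extracted with Trizol per the labels' protocols, was measured on one-colour biotin Affymetrix arrays. The table used holds log2 values that the authors deposited for 35556 probe sets. The submitters' processing notes name Affymetrix Expression Console and GCOS, and the sources used here give no summarisation or normalization method. Base 2 was inferred from the range of the values, 2.33 to 14.7, with array medians of 7.49 to 7.61. No further normalization was applied.

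A platform annotation paired 21789 probe sets with 1 symbol and 1621 with several, and 12146 were not listed. Symbols were updated by gene identifier to RefSeq GRCm38.p6. Of several probe sets for a gene the one of highest mean was used, giving 19938 genes with no filter on low values. Limma 3.58.1 in R 4.3.3 fitted 1 mean per group to all 20 arrays (16 residual degrees of freedom), with eBayes and 2-sided tests for 7 contrasts and a moderated F test. P-values were adjusted by Benjamini-Hochberg over all genes per contrast, with a threshold of 0.05. The fit was tested on simulated data for p19Arf+IFNbeta against eGFP with 19938 genes: it called 64% of 50 genes changed by 0.5 on the log2 scale and 98% of 50 genes changed by 1. The simulated noise was independent between genes, while many genes of the real arrays moved together with array spread. These shares therefore need not hold for the real arrays. The number of arrays limits the precision.

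The members, lists and tests were chosen with earlier results of these data known, so that members have no test as a list. Values on every array are given for members with the smallest p: 6 for p19Arf+IFNbeta and 3 each for p19Arf and IFNbeta against eGFP, and 3 in the F test. They are also given for Hif1a, Epas1, Vegfa, Slc2a1, Ldha and Pgk1. For the pathway lists the 3 genes of smallest p are named. Likeness is Pearson correlation. Alternatives were quantile normalization, median centring, array spread or muscle markers as a covariate, array weights, trend and robust moderation, a filter on low values, other probe set and class rules, only the groups compared, the replicate number as a block, and leaving out arrays. Arrays of the same replicate number in different groups showed no consistent likeness: their deviations from the group means correlated between -0.62 and 0.66 (median -0.05). Such correlations cannot settle whether the numbers pair the tumors.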

Additional observations from a re-analysis of the deposited data

Results flagged for a closer look

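Single arrays stood apart from the other 4 of their group in 7 of the 68 sets of 5 values examined, where chance alone flags about 1 in 20. The sets share arrays, and many of their genes varied together, so 1 array can be counted several times. The count can therefore not be weighed against that rate. Replicate 2 of the p19Arf group was low for 3 members: Stc1 was at 8.30 (9.02 to 9.27 on the other p19Arf arrays), Egln3 at 11.7 (12.1 to 12.2) and Pdk1 at 10.2 (10.5 to 10.6). Replicate 1 of the eGFP group was low for Stc1, at 8.73 (9.63 to 9.88 on the other eGFP arrays), and for Hif1a, at 11.4 (11.9 to 12.0). Replicate 3 of the IFNbeta group was low for Hif1a, at 11.4 (11.9 to 12.0 on the other IFNbeta arrays). Replicate 4 of the p19Arf+IFNbeta group was high for Vegfa, at 11.2 (10.4 to 10.7 on the other arrays of that group). Of these 4 arrays, all but eGFP replicate 1 are among the 5 arrays of lowest spread; the part of the spread in these values was not tested.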

How the results depend on the processing

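Among the differences of members chosen for their small p, and of Hif1a, Epas1, Vegfa, Slc2a1, Ldha and Pgk1 between p19Arf+IFNbeta and eGFP tumors, none changed sign under the alternatives run. Hif1a kept its sign there but lost nearly all of its difference with the spread as a covariate, as given above. Other differences of members changed sign, among them Hif1a for p19Arf against eGFP, -0.22 and with the spread as a covariate 0.08, and Pgk1 for IFNbeta against eGFP, -0.08 and with the muscle markers 0.02. Class medians close to 0 also changed sign: for IFNbeta against eGFP the enzymes, at 0.004, ran from -0.03 to 0.08 when 1 array was left out, and for p19Arf+IFNbeta against p19Arf the enzymes and targets, at -0.05, were at 0.02 and 0.004 without the 5 arrays of lowest spread. Most counts of members past the adjusted threshold stayed at 0, and the cause of the exceptions was not tested. Array weights gave 1 member (Stc1) for p19Arf+IFNbeta against eGFP, 9 for p19Arf+IFNbeta against IFNbeta, 19 for tumors with against tumors without p19Arf, and 10 for any difference. The muscle marker level as a covariate gave 1 (Car12) for tumors with p19Arf. Leaving out 1 array gave 0 to 1 for p19Arf+IFNbeta against eGFP, 0 to 13 against IFNbeta and 0 to 16 for tumors with p19Arf, the arrays being named above. The shares of all genes that passed in these fits are not given, so none of these counts can be read as particular to the members. The median difference of the other hypoxia targets moved by more than the pooled replicate SD in 5 cases. With the spread as a covariate it was -0.11 for p19Arf+IFNbeta and -0.049 for p19Arf against eGFP, and -0.076 for tumors with p19Arf. With quantile normalization it was -0.11 for p19Arf+IFNbeta against IFNbeta and -0.076 for tumors with p19Arf. Members at an unadjusted p under 0.05 for p19Arf+IFNbeta against eGFP, 18 lower and 3 higher, were 10 and 3 without the 5 arrays of lowest spread, where 4.48% of all genes were lower. None of those arrays was an eGFP array. A fit with the replicate block gave 0 members past the threshold in each comparison, with Car12 at an adjusted p of 0.097 for tumors with p19Arf. Signal over background could not be judged, since the table holds no detection calls.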
